A study of Mus musculus with 7 samples.

Results

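Inflammasome and pyroptosis genes are described here in nuclei of mouse small cell lung cancer. The 10 genes were taken by symbol from a list (Nlrp3, Aim2, Nlrp1b, Pycard, Casp1, Casp4, Gsdmd, Gsdme, Il1b and Il18), and all 10 were among the 56941 genes of the count tables of each animal. RP mice carried Rb1 fl/fl and Trp53 fl/fl alleles, and RPC mice carried these and in addition a deleted or deletable Casp8, which the labels write as Casp8-/- and the study describes as a conditional allele. All animals received Cre recombinase by an intratracheal adenovirus under a CMV promoter, which is not restricted to 1 type of infected lung cell, at 8 to 12 weeks of age, and fresh-frozen lung tumors were taken at the endpoint of disease. Tumors of 4 male mice were sequenced, 2 of each genotype (RP1 and RP2, then RPC1 and RPC2), and each of the 7 libraries pooled nuclei of all 4 animals. Wherever 4 values follow each other below, they belong to the animals in this order. How many tumors each animal contributed is not given in the sources used here, and the p-values measure only the spread between these animals.

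Inflammasomes are protein complexes that sense danger inside a cell. A sensor such as NLRP3 or AIM2 recruits caspase-1, often through the adaptor ASC, and caspase-1 then cuts the precursors of IL-1β and IL-18 and the pore-forming protein gasdermin D, which opens the plasma membrane and ends in the lytic cell death called pyroptosis. In the lung, macrophages are a main site of this pathway. Small cell lung cancer cells are neuroendocrine cells.

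After filtering, 38254 of 38353 nuclei were kept, with a median of 2223 to 3392 transcripts per nucleus by animal, higher in both RPC than in both RP animals. No barcode was shared between animals. Between 3.09% and 9.99% of an animal's transcripts were of the ribosomal Rn18s-rs5, with less in both RPC than in both RP animals, so that depth and this share differed between the genotypes. Marker genes named 32164 nuclei tumor-like and 839 macrophage- or monocyte-like (163, 317, 187 and 172 by animal), and 2291 stayed unnamed. In a second clustering, the macrophage-like nuclei made up clusters of 352 alveolar macrophage-like nuclei, 270 other macrophage- or monocyte-like nuclei and 217 nuclei with a median of 9810 transcripts. Genes of the tumor led this deep cluster, so it carries no name of its own. The 2-fold rule and some tests of genotype are also given without it. Other values for macrophage-like nuclei include it unless the clusters are given apart. No cluster was named neutrophil- or dendritic cell-like. Casp8 had 58.9, 60.6, 89.1 and 66.4 scaled CPM in tumor-like nuclei, where CPM are the transcripts of a gene per 1000000 transcripts of the same animal and class, and scaled CPM also carry the normalization factors of the test. These counts cover the whole gene, so they do not check the deletion.

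The genes lay on chromosomes 1, 2, 6, 7, 9, 11 and 15 of GRCm39, with Casp1 (chr9:5298508-5307290, plus strand) next to Casp4 (chr9:5308828-5336783, plus strand). Transcripts of Il1b lay mostly in macrophage-like nuclei, though less so than those of Nlrp3, and those of Gsdme lay mostly in tumor-like nuclei. The promoters of Il1b and Gsdme, from opposite sides of the range described below, are shown. Each is the window of 250 bases before the first base of the canonical transcript, read from GRCm39 at chr2:129213060-129213309 (minus strand) and chr6:50238857-50239106 (minus strand), 5′ to 3′. Capitals mark TATAAA in Il1b and each CG dinucleotide in Gsdme.
Il1b: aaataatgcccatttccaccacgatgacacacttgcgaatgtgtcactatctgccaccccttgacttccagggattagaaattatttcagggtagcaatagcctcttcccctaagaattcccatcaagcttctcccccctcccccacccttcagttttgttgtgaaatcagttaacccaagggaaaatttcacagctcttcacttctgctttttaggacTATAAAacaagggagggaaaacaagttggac
Gsdme: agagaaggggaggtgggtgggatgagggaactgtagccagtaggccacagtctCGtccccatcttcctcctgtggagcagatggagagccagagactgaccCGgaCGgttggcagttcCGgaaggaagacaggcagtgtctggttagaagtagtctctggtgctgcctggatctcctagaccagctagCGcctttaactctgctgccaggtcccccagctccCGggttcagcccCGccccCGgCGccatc
TATAAA started 31 bases before the transcript start in Il1b and was found in none of the other 9 windows on either strand. Of 21757 promoters of this length, 2.79% held TATAAA on the forward strand within the last 40 bases, and 11.92% held it anywhere on either strand. The Gsdme window held 9 CG dinucleotides and that of Il1b held 2, where the median promoter held 8. The other 8 windows held 0 (Nlrp1b) to 6 (Gsdmd). AGGAAGT, searched on both strands, was found in the Pycard window alone (7.12% of all promoters), and TGACTCA (4.03%) was found in none of the 10.

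Most transcripts of Nlrp3, Il18 and Il1b lay in macrophage-like nuclei, which made up 2.19% of all nuclei and 3.40% of all transcripts. These nuclei held 68.8% of 141 Nlrp3 transcripts (95% interval 60.5 to 76.3), 60.8% of 502 Il18 transcripts (56.3 to 65.0) and 60.5% of 86 Il1b transcripts (49.3 to 70.8). By animal the Il1b share ran from 25% of 16 transcripts in RPC2 to 85.7% of 7 in RPC1. Macrophage-like nuclei also held 46.0% of 150 Casp1 transcripts, 37.9% of 1131 of Aim2 and 35.7% of 171 of Nlrp1b. The share was lower for Gsdmd with 12.9% of 637, Pycard with 7.97% of 565 and Casp4 with 7.95% of 1924. Gsdme was the exception, since 2.67% of its 5849 transcripts were in macrophage-like nuclei, below the share of these nuclei among all transcripts, and 82.5% were in tumor-like nuclei. Intervals for counts and shares are exact Poisson or binomial intervals and cover counting error only.

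**Figure D1:**
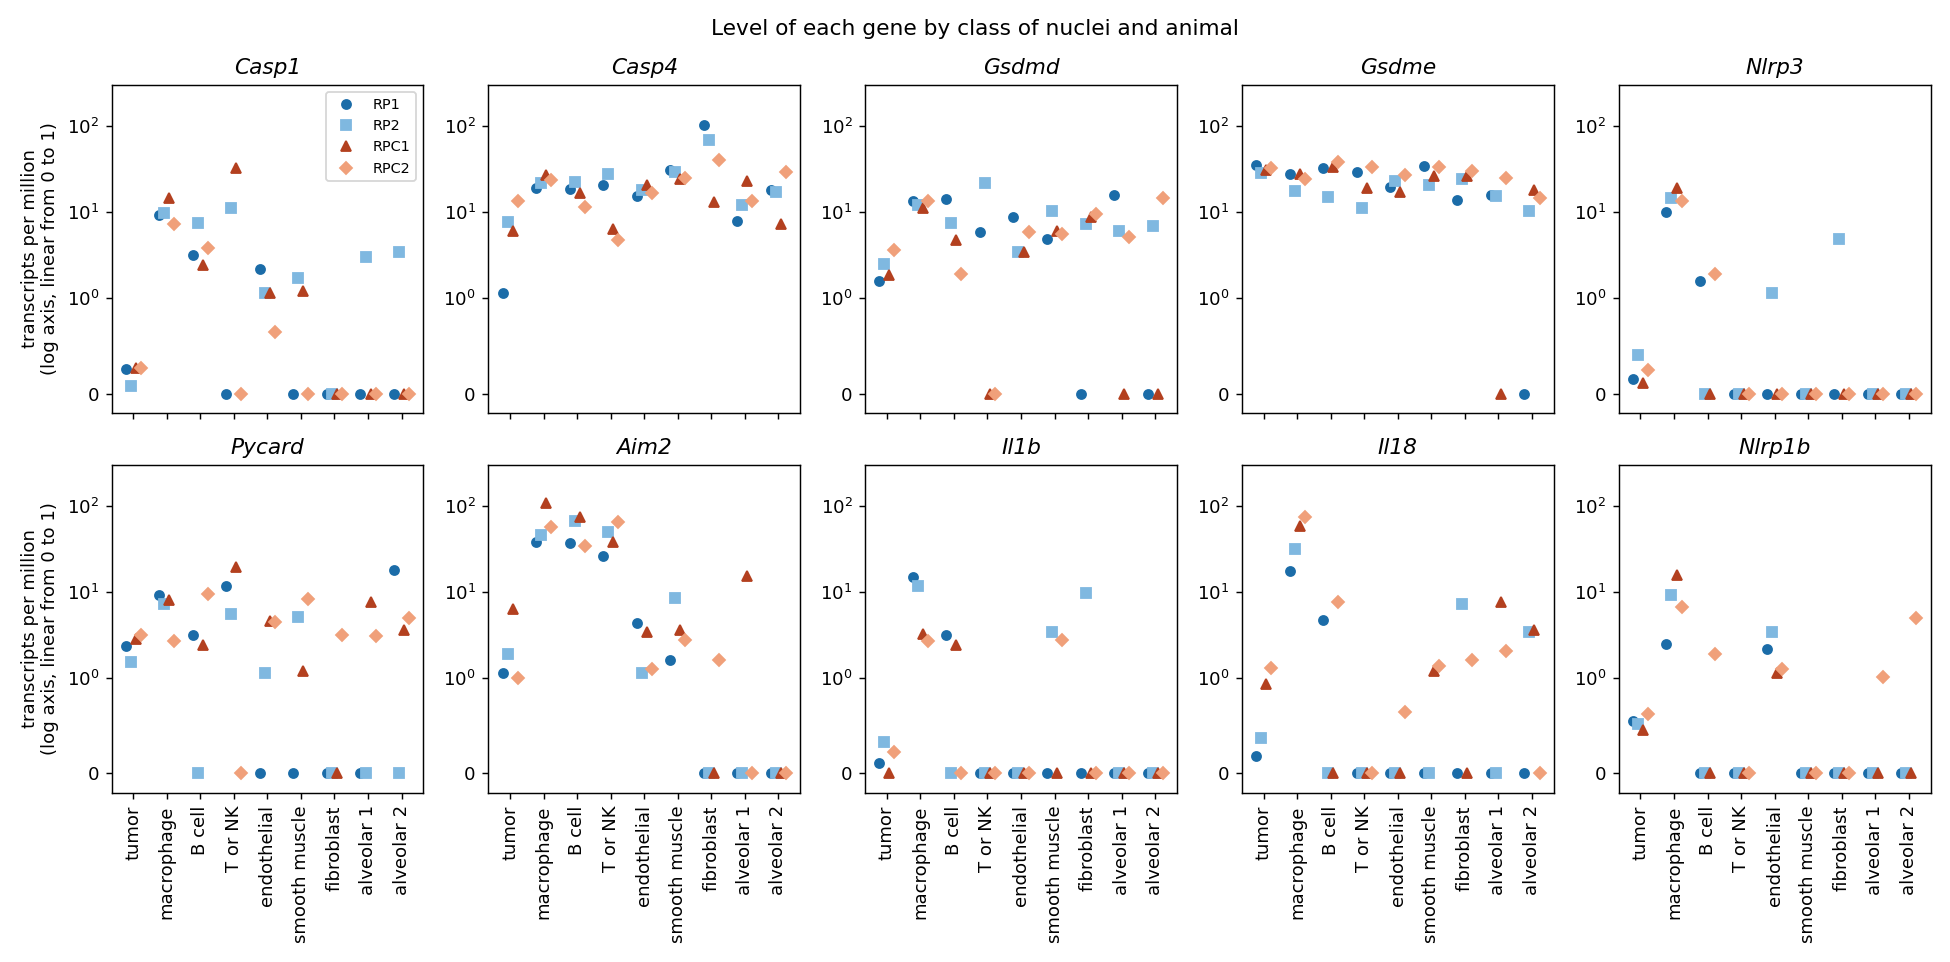
CPM of each of the 10 genes (vertical axes, logarithmic above 1 and linear from 0 to 1) in 9 classes of nuclei with at least 20 nuclei in each animal, 1 point per animal. Nlrp3, Il1b, Il18 and Nlrp1b stand highest in macrophage-like nuclei. Aim2 overlaps between macrophage-like nuclei, which here include the deep cluster, and B cell- and T or NK cell-like nuclei. Gsdme stands between 28.7 and 35.6 in the tumor-like nuclei of all 4 animals.

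Within each animal, 7 of the 10 genes were at least 2-fold higher in CPM in macrophage-like than in tumor-like nuclei, namely Nlrp3, Aim2, Nlrp1b, Casp1, Gsdmd, Il1b and Il18. The same rule held for 5.89% of the 20331 genes with enough counts. None of the 10 was at least 2-fold lower in each animal, against 1.62% of all genes. Since the classes were made from clusters of the same nuclei, this is a description without a test. Without the deep cluster 8 of 10 genes met the rule, Casp4 being the addition, but so did 7.44% of all genes, and 8.85% of all genes were then at least 2-fold lower. Levels by class are ordered below over the 9 classes with at least 20 nuclei in each animal, which leaves out club-, ciliated- and mesothelial-like nuclei.

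Among the sensors, Nlrp3, which responds to membrane damage and loss of potassium, had 9.97, 14.6, 18.7 and 13.3 CPM in macrophage-like nuclei. In tumor-like nuclei it had 0.147, 0.406, 0.114 and 0.245, so that the classes did not overlap in any animal. T or NK cell-, alveolar type 1-, alveolar type 2- and smooth muscle- or pericyte-like nuclei held no Nlrp3 transcript, which at 3 counts allows up to 3.06 to 53.5 CPM in a single animal and class. Nlrp1b, a sensor that bacterial proteases activate, had 2.49, 9.24, 15.5 and 6.67 in macrophage-like and 0.550, 0.517, 0.456 and 0.624 in tumor-like nuclei. RP1 was the lowest macrophage value of Nlrp1b, with 3 transcripts.

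Aim2, the sensor of double-stranded DNA in the cytosol, was not particular to macrophages. It had 38.2, 46.2, 109 and 56.7 CPM in macrophage-like nuclei, a mean of 53.3 ± 20.5 (SD, n = 4 animals) in B cell-like nuclei and 45.0 ± 16.8 in T or NK cell-like nuclei. These 3 classes overlapped, where the macrophage-like class includes the deep cluster. In that cluster Aim2 was lower than in both named kinds of macrophage, as given below. The next class, smooth muscle- or pericyte-like nuclei, had 4.12 ± 3.05. With each nucleus thinned to 1000 transcripts, 8.37% ± 4.38 of macrophage-like nuclei held an Aim2 transcript (4.76% in RP1 to 14.6% in RPC1) and 0.223% of tumor-like nuclei did. Without thinning the macrophage share was 32.3%, at a median depth of 3510 transcripts in macrophage-like and 2750 in tumor-like nuclei.

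Pycard encodes the adaptor ASC. It had 9.13, 7.29, 8.03 and 2.67 CPM in macrophage-like nuclei, and 2.35, 1.51, 2.85 and 3.18 in tumor-like nuclei. In RPC2, with 4 macrophage transcripts, the macrophage value was below the tumor value. T or NK cell-like nuclei had 9.08 ± 8.26 (SD, n = 4), so the order of the classes cannot be read at this depth.

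Casp1, the protease at the center of the inflammasome, had 9.13, 9.73, 14.5 and 7.33 CPM in macrophage-like nuclei. In tumor-like nuclei it had 0.257, 0.0738, 0.266 and 0.267, all far below the macrophage values. T or NK cell-like nuclei ranged from 0 in RP1 and RPC2 to 32.0 in RPC1 with 5 transcripts. Casp4 (mouse caspase-11), which binds bacterial lipopolysaccharide, had 19.1, 21.9, 26.8 and 23.3 in macrophage-like nuclei, but its highest mean among the 9 classes was in fibroblast-like nuclei with 56.1 ± 38.6 (SD, n = 4). Smooth muscle- or pericyte-like nuclei followed with 27.1 ± 3.28, and neighbors in this order overlapped. Of the classes with fewer nuclei, mesothelial-like nuclei had 84.1 ± 29.6 from 26 transcripts and club-like nuclei had 45.9 ± 35.4.

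Gsdmd, the gene of the pore protein gasdermin D, had 13.3, 12.2, 11.2 and 13.3 CPM in macrophage-like nuclei and 1.58, 2.51, 1.84 and 3.56 in tumor-like nuclei. It was thus steady across animals in macrophages and at least 2-fold lower in the tumor in each. Gsdme, whose protein is cut by caspase-3 and so can turn apoptosis into lytic death, had 35.6, 28.7, 31.1 and 32.2 in tumor-like nuclei and 27.4, 17.5, 27.3 and 24.0 in macrophage-like nuclei. The tumor value was the higher in each animal, by less than 2-fold in the class with the deep cluster. That cluster held 106 of the 156 macrophage-like Gsdme transcripts, at 30.89 ± 8.413 CPM (SD, n = 4). By animal, alveolar macrophage-like nuclei ran from 7.645 to 19.82 CPM, and the other macrophage- or monocyte-like nuclei from 5.032 to 25.76. The lowest values, in RPC2 and RP2, were more than 2-fold below the tumor but rested on 2 and 1 transcripts. The highest, in RPC1 and RP1, were less than 2-fold below it.

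The cytokine genes come last. Il18 had 17.4, 31.1, 58.4 and 74.0 CPM in macrophage-like nuclei, and 0.184, 0.369, 0.931 and 1.31 in tumor-like nuclei. Its mean in the others of the 9 classes was at most 3.06 ± 3.73 (SD, n = 4, B cell-like). Mesothelial-like nuclei had 28.6 ± 32.3 from 7 transcripts in 54 nuclei, and ciliated-like nuclei had 7.99 ± 7.72 from 9. Il1b had 14.95, 11.7, 3.21 and 2.67 in macrophage-like nuclei, from 18, 24, 6 and 4 transcripts. In tumor-like nuclei Il1b had 3, 9, 0 and 10 transcripts, and T or NK cell-, endothelial-, alveolar type 1- and alveolar type 2-like nuclei held none.

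Free RNA and mixed nuclei can carry transcripts between classes, so the genes were set beside markers that tumor nuclei should lack. The 11 macrophage markers with at least 40 counts in macrophage-like nuclei stood in tumor-like nuclei at a median of 2.03% of their macrophage-like level, from 0.512% (Mertk) to 15.3% (Cd68). Nlrp3 at 1.44%, Il18 at 1.76%, Il1b at 1.85% and Casp1 at 2.21% were within the range of these markers and near their median, so no expression in tumor-like nuclei is read from them. By animal these shares varied, for Il1b from 0% in RPC1 to 8.35% in RPC2, and the source of the transcripts was not tested. Aim2 at 4.70% and Nlrp1b at 5.79% lay between that median and the highest marker. RPC1 set the value of Aim2, which was 2.70% without that animal, and Nlrp1b reached 22.1% in RP1 over the 3 macrophage transcripts there. Pooled over the animals, Gsdmd at 19.6%, Casp4 at 32.9%, Pycard at 38.6% and Gsdme at 135% exceeded all 11 markers. Without RPC2, Gsdmd was 16.1%, Casp4 22.6% and Pycard 29.8%. In RP1 alone the shares of Casp4 (1.14 against 19.1 CPM) and Gsdmd (1.58 against 13.3) lay below the pooled share of Cd68.

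**Figure D2:**
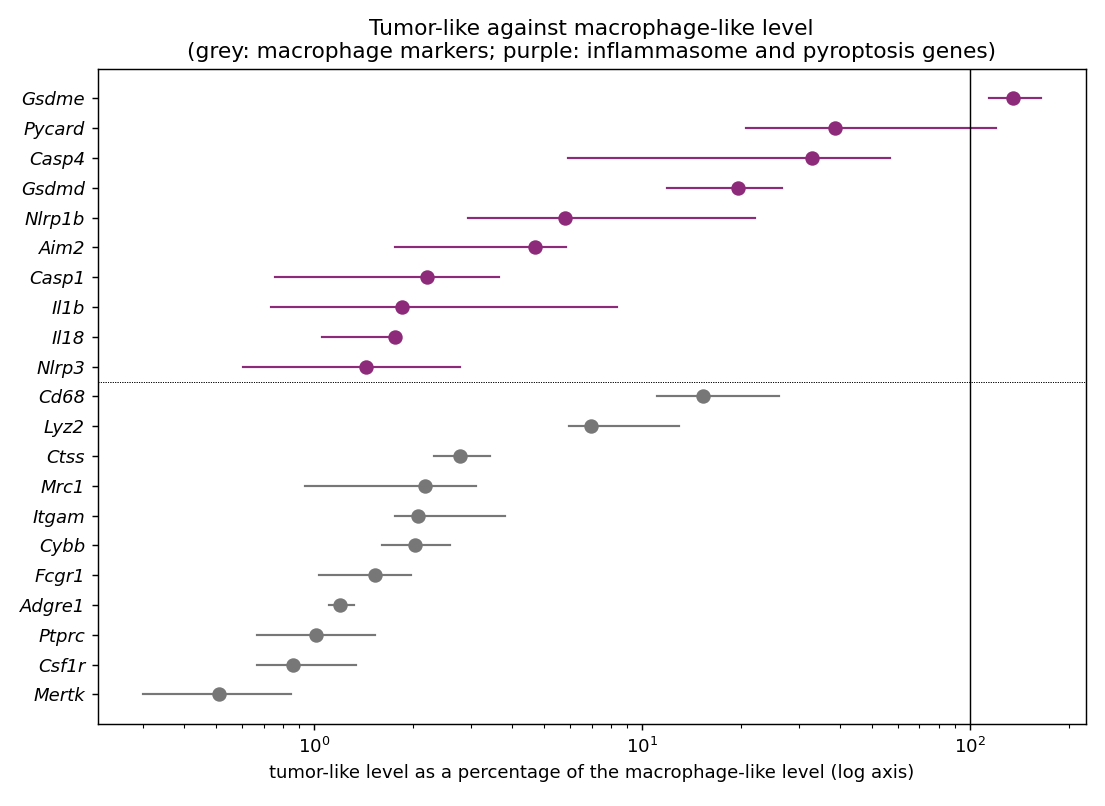
Level in tumor-like nuclei as a percentage of the level in macrophage-like nuclei (logarithmic axis) for the 10 genes (purple) and 11 macrophage markers (grey). Points pool the 4 animals and lines run from the lowest to the highest animal (animals at 0 are not drawn). Gsdmd, Casp4, Pycard and Gsdme lie to the right of all marker points.

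Gsdme was compared the other way round, with genes of the tumor. The 14 neuroendocrine markers stood in macrophage-like nuclei at a median of 66.0% of their tumor-like level, beside 74.1% for Gsdme. In alveolar macrophage-like nuclei these values were 44.0% and 53.9%, in the other macrophage- or monocyte-like nuclei 46.2% and 49.3%, in the deep cluster 85.8% and 92.5%, in endothelial-like nuclei 82.2% and 71.9%, and in alveolar type 2-like nuclei 32.3% and 41.7%. In B cell-like nuclei, however, Gsdme stood at 104% of the tumor-like level where the median neuroendocrine marker stood at 78.6% and the highest at 99.6%, and in fibroblast-like nuclei at 82.6% beside a median of 61.5%. The B cell value rested on 57 transcripts and ran from 52.3% in RP2 to 118% in RPC2. How much of the Gsdme level outside the tumor was carried-over tumor RNA was not tested. The gene (chr6:50165868-50240842, minus strand) also overlaps Pals2 on the other strand, and Gsdme had 10.3 transcripts per 100 of Pals2 in tumor-like, 8.82 in macrophage-like and 9.77 in endothelial-like nuclei. The strand setting of the counting is not given in the sources used here, so the reads of these genes cannot be told apart. The same holds for Aim2 and Cadm3, for Il1b with Gm14023 and Il1bos, for Il18 with Bco2 and Tex12 and for Pycard with Gm45205.

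Alveolar macrophages patrol the air spaces, and monocyte-derived macrophages lie in the tissue. Aim2 had 65.1, 69.6, 149 and 149 CPM in alveolar macrophage-like nuclei, and 77.3, 111, 137 and 64.7 in the other macrophage- or monocyte-like nuclei. In the deep cluster it had 21.2, 23.7, 43.5 and 27.4, below both. Aim2 was thus present in both named kinds of macrophage, which overlapped.

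Il18 was even across animals in alveolar macrophage-like nuclei, with 76.9, 69.6, 80.5 and 103 CPM. In the other macrophage- or monocyte-like nuclei it was spread from 4.29 in RP1 (1 transcript) over 55.3 in RP2 and 83.9 in RPC1 to 173 in RPC2 (56 transcripts). Alveolar macrophage-like nuclei were 35 of 163, 152 of 317, 102 of 187 and 63 of 172 macrophage-like nuclei, so the makeup of the class differed between animals as well, and its part in the Il18 level of the whole class was not tested. Nlrp3 had 23.7, 28.5, 16.1 and 22.9 in alveolar macrophage-like nuclei. In the other kind it had 0, 20.1, 35.6 and 40.1, where no transcript in RP1 allows up to 12.9.

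Il1b was highest in the other macrophage- or monocyte-like nuclei of the RP animals, with 42.9 CPM in RP1 and 40.2 in RP2, from 10 and 8 transcripts. RPC1 had 2.54 and RPC2 had 6.17 there, from 1 and 2 transcripts. In alveolar macrophage-like nuclei Il1b had 17.8, 4.75, 4.95 and 3.82, from 3, 3, 4 and 1 transcripts, and the interval of RP1 (3.66 to 51.9) covered the values of the other animals. Neutrophils, a common source of Il1b, could lie among these nuclei. The 10 neutrophil markers summed to 129, 80.5, 78.8 and 37.0 CPM in the other macrophage- or monocyte-like nuclei, of which Csf3r, which monocytes also express, made up 124, 70.4, 33.0 and 30.8. Ltf had 4.29, 0, 38.1 and 3.08 CPM there, Mmp9 had 0, 10.1, 7.62 and 0, and S100a9 had 1 transcript, in RPC2. S100a8, Retnlg, Cxcr2, Ly6g, Mmp8 and Padi4 had no transcript there, and the part of neutrophils in the Il1b values was not tested.

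**Figure D3:**
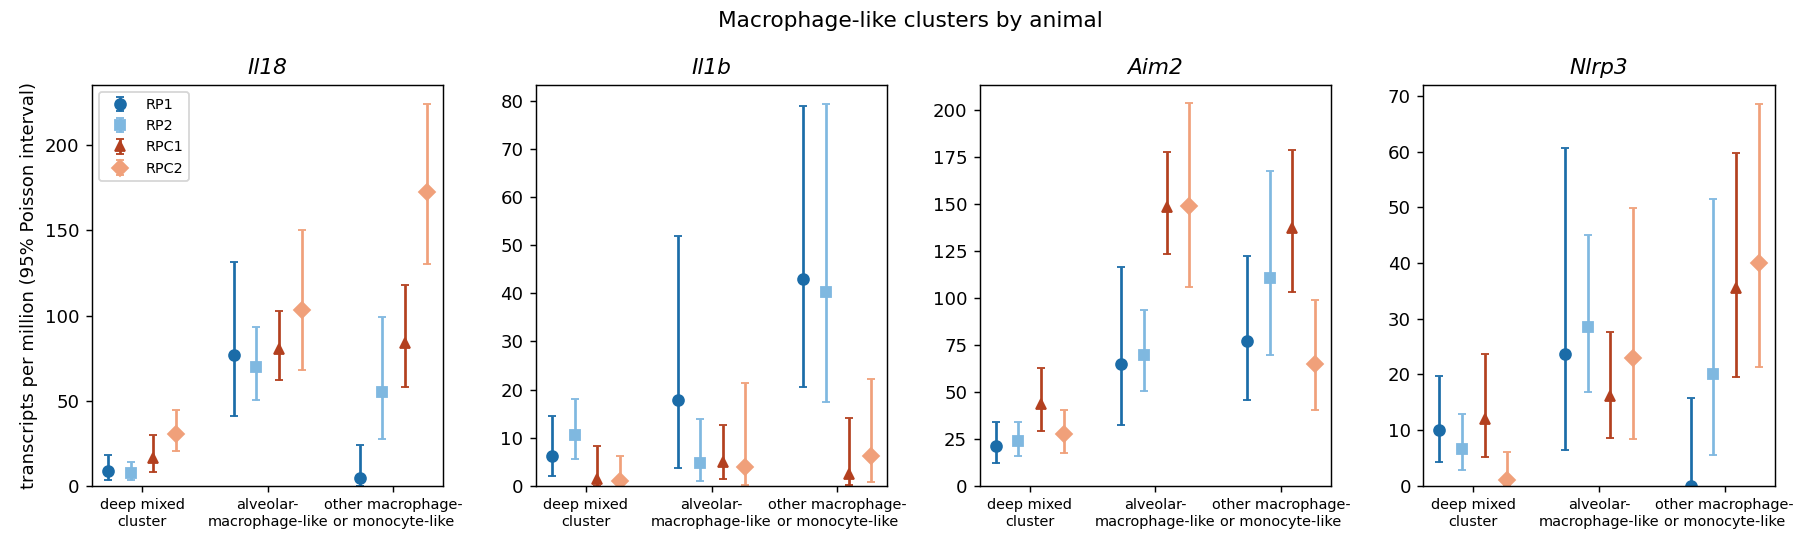
CPM of Il18, Il1b, Aim2 and Nlrp3 in the deep mixed cluster and the 2 named kinds of macrophage-like nuclei, 1 point per animal with its exact 95% Poisson interval. Il18 is even in alveolar macrophage-like nuclei (69.6 to 103) and spread in the other kind (4.29 to 173), and Il1b is highest in the other kind in RP1 and RP2.

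RPC was set against RP to see which of these genes differ between the genotypes. The protein of Casp8 also restrains necroptosis. Macrophage-like nuclei had 96.4, 97.3, 135.5 and 104.1 scaled CPM of Casp8, counted over the whole gene. Whether these nuclei had lost Casp8 was not tested. In macrophage-like nuclei all 10 genes were tested and none rose or fell at an adjusted p under 0.05 (edgeR quasi-likelihood test, Benjamini-Hochberg over 11824 genes), where 1 gene or 0.00846% of all genes did. DESeq2 also called none of the 10. At an unadjusted p under 0.05, 3 of the 10 stood out, Il1b, Il18 and Aim2, and 1428 of all genes did. The 1 called gene, Gm30835, was named after its values were seen. It is also among the leading genes of the deep cluster.

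Il18 had 18.4, 33.0, 55.3 and 74.6 scaled CPM in macrophage-like nuclei, so both RPC animals stood above both RP animals. The log2 difference of RPC over RP was 1.29 ± 0.33 (SE), with an edgeR p of 0.00554 and an adjusted p of 0.317. It was 0.92 ± 0.39 without the deep cluster, with an adjusted p of 0.427. Without the filter on low counts the edgeR adjusted p of Il18 was 0.0032, so the call depended on the filter. In that setting 509 of 25079 genes were called, against 1 of 11824 with the filter.

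Il1b went the other way. It had 15.8, 12.4, 3.05 and 2.69 scaled CPM, with both RPC animals below both RP animals, and a log2 difference of -2.24 ± 0.48 (SE, edgeR p 0.00242, adjusted p 0.310). The transcripts were found in 13, 14, 5 and 4 nuclei, of which the fullest held 5. Without the filter, where 509 of 25079 genes were called, the edgeR adjusted p was 0.0122. Without the deep cluster Il1b had too few counts to be tested. The deep cluster made up 56 of 163, 94 of 317, 28 of 187 and 39 of 172 macrophage-like nuclei, and its part in the differences was otherwise not tested.

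Aim2, with 40.3, 48.9, 103 and 57.1 scaled CPM in macrophage-like nuclei, had a log2 difference of 0.84 ± 0.32 (SE, edgeR adjusted p 0.383). Without RPC1 it was 0.34. Of the other genes, Casp4 was higher in both RPC animals by 0.17 ± 0.29 and Pycard lower by 0.67 ± 0.58 on the log2 scale, and Nlrp3 (0.24 ± 0.38), Nlrp1b (0.69 ± 0.65), Casp1 (0.10 ± 0.46), Gsdmd (-0.16 ± 0.37) and Gsdme (0.11 ± 0.33) overlapped between genotypes. In all, 3 of 10 genes had both RPC animals above both RP animals, against 22.9% of all genes tested, and 2 of 10 had both below, against 22.6%. These shares are near the background.

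**Figure D4:**
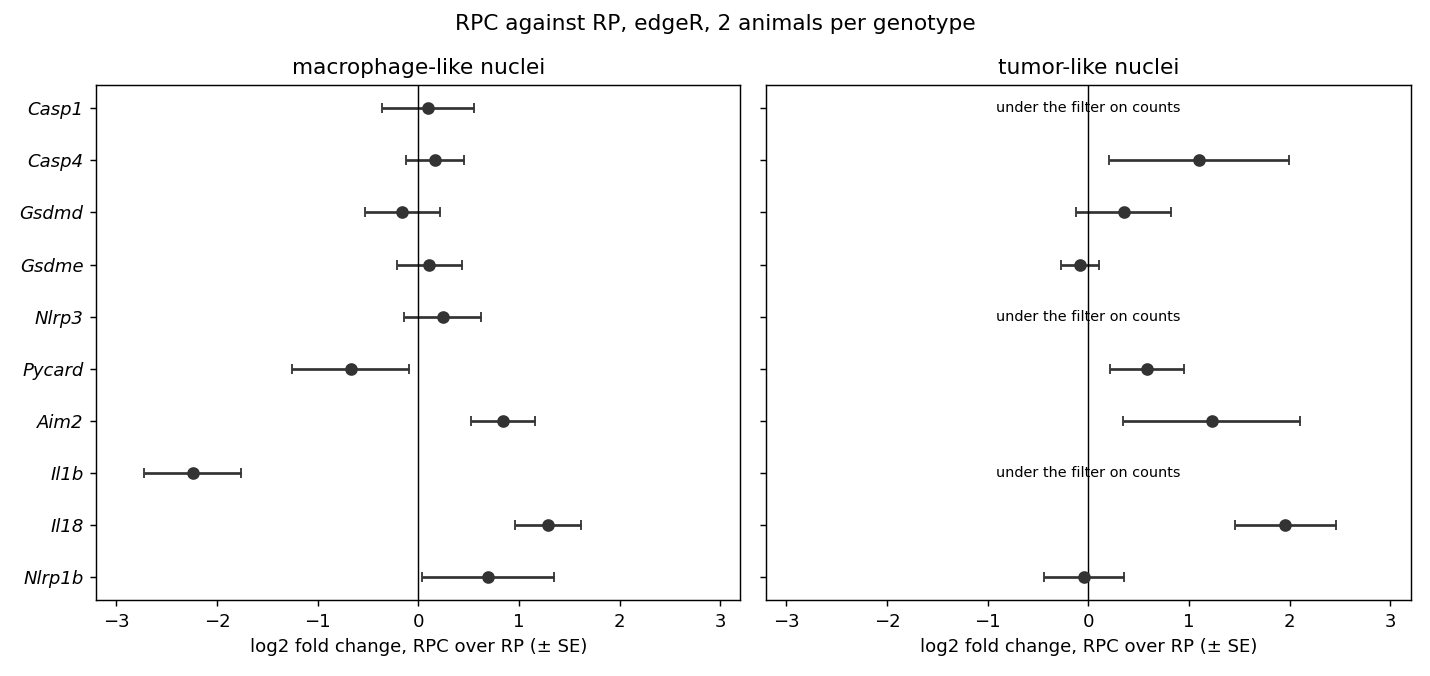
Log2 fold change of RPC over RP with its standard error (edgeR, 2 animals per genotype) for each gene in macrophage-like (left) and tumor-like nuclei (right). Casp1, Nlrp3 and Il1b were under the filter on counts in tumor-like nuclei. Il1b lies lowest at -2.24 and Il18 highest at 1.29 in macrophage-like nuclei, and no gene passed the adjusted threshold.

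In tumor-like nuclei 7 of the 10 genes passed the filter on low counts, and none of these rose or fell (edgeR, Benjamini-Hochberg over 20046 genes), where 0% of all genes did. At an unadjusted p under 0.05, 1 of the 7 and 3035 of all genes stood out, and DESeq2 called 746 genes but none of the 7. Both RPC animals were above both RP animals for 2 genes, Il18 and Pycard, against a background of 24.8%, and below for none, against 25.5%.

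Il18 had 0.189, 0.372, 0.904 and 1.30 scaled CPM in tumor-like nuclei. Its log2 difference was 1.96 ± 0.50 (SE, edgeR p 0.0104, adjusted p 0.277). This order of animals was that of the macrophage-like nuclei, of whose level the tumor-like level was 1.05% to 1.78% in each animal, in the range of the macrophage markers. Pycard was higher by 0.58 ± 0.37, Gsdmd by 0.35 ± 0.47, and Gsdme (-0.08 ± 0.19) and Nlrp1b (-0.04 ± 0.40) lay near 0. The difference of the genotype effect between macrophage-like and tumor-like nuclei was called for 8 of 18947 genes (0.0422%) and for none of the 10. Its smallest p among them was 0.0503 for Pycard (adjusted p 0.929), and 1019 genes had an unadjusted p under 0.05.

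Casp4 differed between single animals in the tumor, and the genotypes overlapped. It had 1.14, 7.64, 6.04 and 13.3 CPM, lowest in RP1 and highest in RPC2. The barcoding wells of an animal were close to each other, since the wells of RP1 ran from 1.01 to 1.22, those of RP2 from 7.03 to 8.38, those of RPC1 from 5.21 to 6.82 and those of RPC2 from 13.28 to 13.31. In RP1 all 6 tumor-like clusters of at least 100 nuclei had at most 3.29, while in RPC2 the 5 clusters ran from 3.05 to 21.5. The log2 difference between genotypes was 1.099 ± 0.89 (SE, edgeR adjusted p 0.571). Leaving out RP1 (0.31), RPC2 (0.42) or RP2 (3.02) moved it by more than 1.5-fold, and leaving out RPC1 gave 1.57.

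Aim2 set 1 cluster apart, mostly of 1 animal. It had 1.14, 1.88, 6.37 and 1.002 CPM in tumor-like nuclei, and 290 of the 335 transcripts of RPC1 came from 584 nuclei of a single cluster, chosen after the values were seen, which the neuronal genes Grik2, Lrrtm4 and Erbb4 led. Aim2 had 46.6 CPM there (95% interval 41.4 to 52.3), in 133 nuclei with up to 11 transcripts each, and 0.970 in the other 8562 tumor-like nuclei of RPC1. The wells of RPC1 gave 53.6, 33.8 and 56.1 for this cluster. In RPC2 the same cluster had 29 nuclei, with Aim2 at 39.5 CPM from 3 transcripts in 2 nuclei. The other tumor-like nuclei of RPC2 had 0.937. The cluster had 8 nuclei in RP1 and 17 in RP2 without an Aim2 transcript, too few to show absence. The log2 difference between genotypes of 1.23 ± 0.88 (SE, edgeR adjusted p 0.523) was -0.62 without RPC1.

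Markers of the cell types with high Aim2 were set beside this cluster. The macrophage markers summed to 52.0 CPM in it and to 36.5 in the other tumor-like nuclei of RPC1, against 2784 in macrophage-like nuclei of that animal. T or NK cell markers summed to 855 and 1446. Over all nuclei Skap1 had 200727 counts and Lck, the next marker of that list, had 646. That sum thus follows Skap1 and cannot show how many T or NK cells the cluster holds. B cell markers summed to 42.6 and 9.44, and were thus higher in the cluster. Cadm3, which the annotated Aim2 gene (chr1:173178445-173293930, plus strand) overlaps on the other strand, had 37 transcripts in the cluster, or 5.95 CPM, and 0.129 CPM in the other tumor-like nuclei. In the cluster 27 nuclei held Cadm3 and 12 held both. The other 9 genes did not share this pattern, with Gsdme at 32.3 and 30.9, Casp4 at 4.50 and 6.25, Il18 at 1.13 and 0.905 and Casp1 at 0 and 0.302 in the cluster and in the other tumor-like nuclei of RPC1. The parts of Cadm3, of B cells and of T or NK cells in the Aim2 value were not tested.

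**Figure D5:**
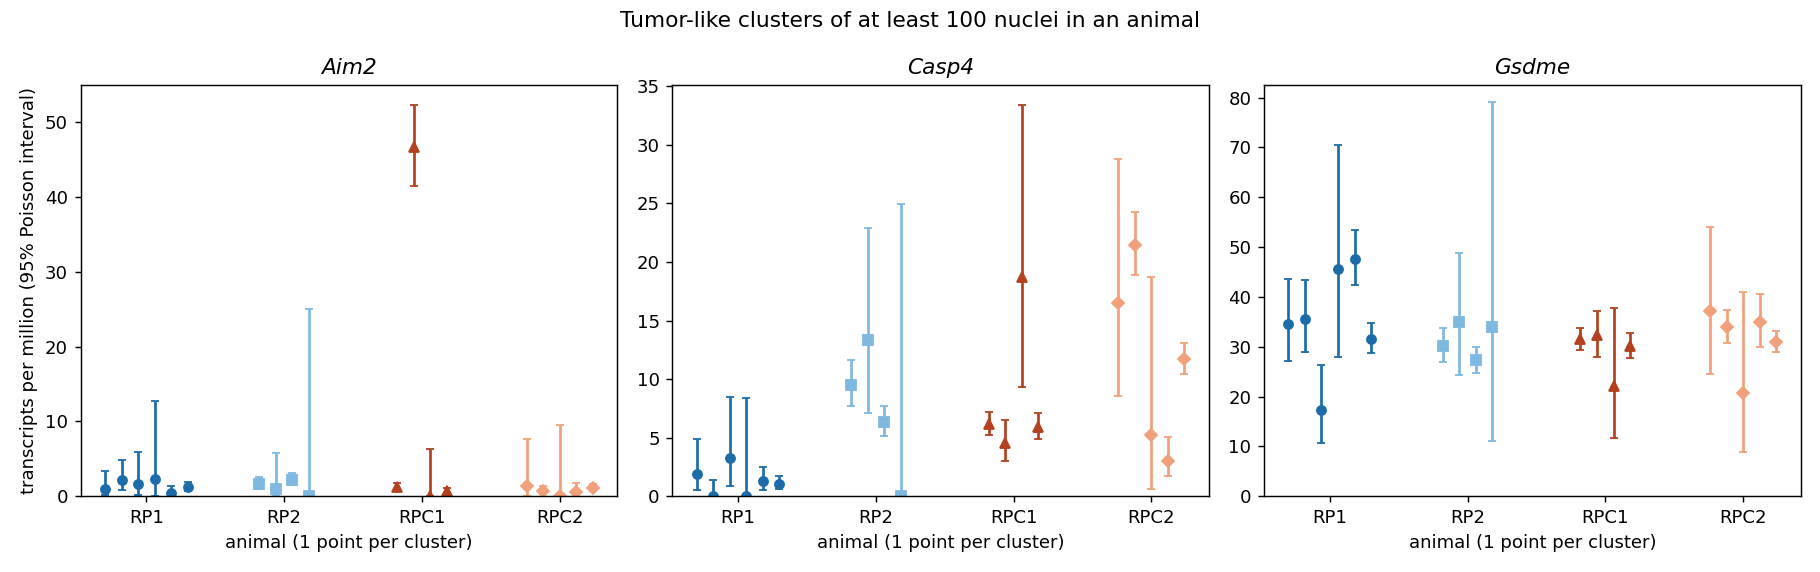
CPM of Aim2, Casp4 and Gsdme in each tumor-like cluster of at least 100 nuclei in an animal, 1 point per cluster and animal with its exact 95% Poisson interval. A single cluster of RPC1 holds Aim2 at 46.6, and Casp4 is at most 3.29 in the clusters of RP1.

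Other genes of the pathway were read from lists of 72 further genes, of which 71 were in the tables. By the same rule of 2-fold in each animal, which 5.89% of all genes met, 11 of 17 further sensors and regulators with enough counts were higher in macrophage-like than in tumor-like nuclei, among them Nlrc4 and Naip2, which sense bacterial flagellin and secretion systems. Nlrc4 had 24.7 ± 2.81 CPM in macrophage-like and 1.91 ± 0.175 in tumor-like nuclei (SD, n = 4). Of the guanylate binding proteins and receptors that prime the pathway, 8 of 11 were higher, among them Gbp2, Gbp5, Tlr2 and Tlr7. Il1a and Il33 were higher among 4 ligands and inhibitors, as were 4 of 12 receptors and signaling genes. Macrophage-like nuclei held 77.3% of 141 Il1a transcripts. They held only 14 transcripts of Il33, in 7 nuclei, or 3.5% of its 396. None of 6 further caspases and none of 3 further gasdermin and rupture genes met the rule, and no gene of these lists was lower.

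In the tests of genotype no gene of these lists rose or fell in either class. Il18r1, the receptor chain that binds IL-18, had 8.79, 6.37, 31.9 and 63.2 scaled CPM in tumor-like nuclei, with both RPC animals above both RP animals. Its log2 difference was 2.65 ± 0.40 (SE, edgeR p 0.00101, adjusted p 0.263). In macrophage-like nuclei it had 14.02, 8.24, 33.5 and 43.7, with a difference of 1.83 ± 0.36 (edgeR adjusted p 0.297). The 14 neuroendocrine markers stood there at a median of 66.0% of their tumor-like level. The part of carried-over tumor RNA in these Il18r1 values was not tested. By level Il18r1 had 206 ± 86.3 (SD, n = 4) in T or NK cell-like nuclei, against 27.9 ± 26.8 in the tumor. Club-like nuclei, 614 of 837 of which came from RPC1, held 20.7% of all 10881 Il18r1 transcripts in 4.55% of all transcripts.

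Of the other genes named by their counts, Irak1, a kinase of IL-1 receptor signaling, was higher in both RPC animals by 0.51 ± 0.18 and 0.61 ± 0.22 on the log2 scale in tumor-like and macrophage-like nuclei, and Dpp9, which restrains NLRP1, differed by -0.59 ± 0.20 and -0.66 ± 0.23. None of these passed (edgeR, adjusted p 0.299 to 0.381). The part of carried-over tumor RNA in the macrophage-like values of Irak1 and Dpp9 was not tested either. Irak3, Casp8, Casp2, Irf1, Tlr4, Gbp7, Il1rn, Il18bp, Il33, Gsdma, Ninj1, Ninj2, Dpp8 and Nek7 had adjusted p-values of 0.381 and above in tumor-like nuclei. The median log2 difference was 0.58 for the 7 genes of the main list in tumor-like nuclei against -0.01 for all genes, and 0.14 for the 10 genes in macrophage-like nuclei against 0.00.

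The genes whose levels were most like those of each gene were sought over 36 sums, of 9 classes in 4 animals, which share libraries, depth and tumor RNA. Pearson's r of the log2 level with an offset of 1 CPM is given as a description. Nlrp3 was most like Gm13391 (0.98), Slc9a4 (0.93) and Gm44993 (0.92), and Aim2 was most like Laptm5 (0.94), with Arhgap25 (0.90) also among its nearest genes. Gsdme was most like Pcna (0.93), Cdc45 (0.92) and Pogk (0.91), which are a replication clamp, a replication factor and a transposable element-derived factor. Il18 was most like Msr1 (0.88), a macrophage scavenger receptor, and Nlrp3 (0.88), and this was the 1 place where a gene of the list was among the 3 most like another. Il1b (Dusp13, 0.83), Casp1 (ENSMUSG00000121399, 0.86), Nlrp1b (I830077J02Rik, 0.85), Gsdmd (Nudt7, 0.75), Casp4 (Tmcc3, 0.70) and Pycard (Tbk1, 0.65) had weaker or sparser neighbors.

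Within macrophage-like nuclei the genes were sparse. Of 839 nuclei, 261 held Aim2, 187 Il18, 114 Casp4, 110 Gsdme, 79 Nlrp3, 76 Gsdmd, 64 Casp1, 52 Nlrp1b, 42 Pycard and 36 Il1b. Casp1 and Nlrp3 were found together in 11 nuclei, Casp1 and Aim2 in 30 and Casp1 and Il1b in 2. No class of inflammasome-positive nuclei can be cut at this depth.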

How the data were processed

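The authors fixed single nuclei, barcoded them by split-pool indexing (Parse Evercode WT Mega), aligned the reads to GRCm39 (Ensembl annotation) and used the Parse pipeline to split the counts by animal. Whether strand was used in counting is not given in the sources used here. The deposited matrices hold counts of unique transcripts per nucleus and gene, not normalized, 1 per animal. Animals, which the labels name in each pooled library, were the replicates.

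As in the study, a nucleus was kept if it had at least 300 counts, at most 12000 genes and at most 10% of its counts from mitochondrial genes. Clustering (Leiden, resolution 0.4, 2000 variable genes without the pathway genes, 20 components, leidenalg 0.10.2, Python 3.11.15) and marker lists named the clusters. Other than tumor, a name was given at a median log2 marker score of 1 (offset 5 CPM) with 3 markers detected in 5% of nuclei. A tumor name needed 3 neuroendocrine markers so detected and no other score above 0.4. The naming rule was set after the clusters were seen, and no doublet caller was run.

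Counts were summed per animal and class, and levels are CPM, counts per 1000000 of that sum. Genes with at least 40 counts in the 8 macrophage- and tumor-like sums entered the 2-fold rule. RPC was tested against RP with the two-sided quasi-likelihood test of edgeR 4.0.16 (R 4.3.3, TMM scaling, filterByExpr, no covariate, Benjamini-Hochberg adjusted p under 0.05), and "scaled" values carry the TMM factors. DESeq2 1.42.0, the tool of the study, was an alternative. The standard error was calculated back from the F statistic. On simulated counts the test recovered 3% of genes changed by a log2 of 1 and 38% of those changed by 2 in tumor-like nuclei (19546 genes), and 16% and 70% in macrophage-like nuclei (11475 genes), so small changes could be missed.

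Promoters were read from GRCm39 at the canonical transcript starts of GENCODE, another annotation release than the counts use. The 10 genes were given by name. From the further lists, the 3 genes with the most counts in each list were named. Some genes that these rules would name are not reported here. The members and lists were chosen with earlier results of these data known.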

Additional observations from a re-analysis of the deposited data

How the results depend on the processing

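The count of the 10 genes at least 2-fold higher in macrophage-like than in tumor-like nuclei was 6 at 4-fold and with even sublibraries, 8 without the deep cluster or without nuclei above 4 times the median depth, and 7 to 9 when an animal was left out. Genes called in tumor-like nuclei numbered 746 with DESeq2, 4 with no filter on low counts and 0 to 3 when an animal was left out. In macrophage-like nuclei they numbered 43 with DESeq2, 509 with no filter, 0 to 20 when an animal was left out, 11 without the deepest nuclei, 9 with even sublibraries and 3 without the deep cluster. With no filter, Il1b (-2.23) and Il18 (1.30) were among the 509 of 25079 genes called in macrophage-like nuclei. The causes were not tested. The numbers of the animals only name them, and same-numbered animals did not deviate together (correlation -0.04 in tumor-like and -0.13 in macrophage-like nuclei). With the number as replicate block the calls were 0 and 1, and a crossed block gave 66 in macrophage-like nuclei. The log2 difference turned its sign in some settings. In tumor-like nuclei, leaving out an animal gave -0.201 (without RPC2) to 0.77 for Gsdmd, -0.24 to 0.102 (without RP1) for Gsdme, -0.62 (without RPC1) to 2.02 for Aim2 and -0.28 to 0.19 for Nlrp1b (positive without RPC1 or RP1, 0.0217). Nlrp1b was also positive with no filter (0.0252), without the deepest nuclei (0.0111) and with odd sublibraries (0.142). In macrophage-like nuclei, leaving out an animal gave -0.439 (without RPC1) to 0.44 for Casp1, -0.337 to 0.000299 (without RPC1) for Gsdmd and -0.212 (without RP2) to 0.427 for Gsdme. Without the deepest nuclei Casp4 was -0.276, Gsdmd 0.131 and Gsdme -0.467, without the deep cluster Casp1 was -0.30, Casp4 -0.278 and Gsdme -0.333, and with even sublibraries Gsdme was -0.0163. The other values, 81 of 89 in tumor-like and 127 of 139 in macrophage-like nuclei, kept their direction and their side of the threshold, and 2 (Il1b and Il18 with no filter) were newly called. The share of macrophage-like nuclei with Aim2 was 4.30% when thinned to 500 transcripts and 32.3% without thinning. The sublibrary, deep-cluster and crossed-block settings were chosen after seeing the data. With 2 animals per genotype and 86 to 502 transcripts of Il1b, Nlrp3, Casp1, Nlrp1b and Il18 in all, small differences could not be seen at this depth.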
